A study of Mus musculus with 4 samples.

Results

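A set of 5 genes of fasting-type fuel use in the liver was followed across 4 diets in obese mice: Bdh1, Acat1, Pdk4, Ppargc1a and Ucp2. They were chosen by gene symbol from the 24346 symbols listed in each library, and 5 of the 5 were found and reached 1 FPKM in every comparison. The tissue was liver of male ob/ob mice, an obese strain that makes no working leptin, a defect that all groups share. No lean control was analysed here. Feeding began at 6 weeks of age and lasted 4 weeks. The groups were CD (regular chow with cholesterol added), CD+7KC (the same chow with 0.01% 7-ketocholesterol, an oxidized form of cholesterol), WD (western type diet, rich in fat and sucrose) and WD+7KC (that diet with 0.01% 7-ketocholesterol). Cholesterol made up 1% of every diet. Each group had 1 library, and the sources used here do not give the number of mice behind it. Without replicates no difference between groups could be tested, and p-values are left out.

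When food is short, the liver turns from glucose to fatty acids. Fatty acids are cut to acetyl-CoA in mitochondria, and much of that acetyl-CoA is exported as ketone bodies. Acat1 encodes the mitochondrial thiolase that joins acetyl-CoA into acetoacetyl-CoA (it is not the sterol acyltransferase Soat1, which also went by the name ACAT1). Bdh1 encodes the dehydrogenase that converts acetoacetate and β-hydroxybutyrate into each other at the last step. Pdk4 encodes a kinase that switches off pyruvate dehydrogenase and so keeps pyruvate from being burned. Ppargc1a encodes PGC-1α, a coactivator of genes for fatty acid oxidation and gluconeogenesis. Ucp2 encodes a carrier of the inner mitochondrial membrane that is known from macrophages and other immune cells, and from fatty liver.

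The values are FPKM, that is sequenced fragments scaled to the length of the mRNA and to the depth of the library, which can be compared between genes because they are per length. From the steps between low values, the depth was estimated such that 1 FPKM stands for 9.44 to 12.16 reads per kilobase of mRNA in a library. Read numbers below rest on this estimate, and 95% intervals of a ratio (exact, Clopper-Pearson) cover counting error only, not the variation between mice. FPKM summed to between 696062 and 715605 in CD, CD+7KC and WD but to 602059 in WD+7KC. For this reason, rescaling to equal sums moved the all-gene median of the log2 fold changes by 0.21 in WD+7KC compared to WD and by 0.21 in WD+7KC compared to CD+7KC, against 0.037 or less in the other comparisons. Changes of the 5 genes that involve WD+7KC are therefore also given after rescaling. The all-gene median after rescaling was itself 0.19 in both comparisons with WD+7KC, and rescaled changes are to be read beside it. All 10 hepatocyte markers were above 1 FPKM in every library, and their sum ranged from 45678 to 58403 FPKM. Of the 6 skeletal muscle markers, Ckm, Myh4 and Myh1 were listed at 0 in every library, while Mylpf reached 1 FPKM in CD and WD+7KC. Of the 6 adipocyte markers, Plin1 and Lep were listed at 0 in every library. Cidec (115 to 202 FPKM), Fabp4 (66.5 to 143 FPKM) and Lipe (5.97 to 6.86 FPKM) were above 1 FPKM in every library. Acta1, Tnnt3 and Adipoq stayed below 1 FPKM.

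The 5 genes spanned a wide range of levels. In CD, Acat1 was at 227 FPKM (rank 448 in the library), Bdh1 at 103 FPKM (rank 858), Ucp2 at 29.0 FPKM (rank 2289), Pdk4 at 12.6 FPKM (rank 4057) and Ppargc1a at 1.33 FPKM (rank 9879). The ratio of the highest to the lowest library was 2.51 for Ucp2, 1.78 for Pdk4, 1.41 for Ppargc1a, 1.39 for Acat1 and 1.26 for Bdh1. The order of the diets differed from gene to gene: Ucp2 was highest in WD+7KC, Acat1 and Bdh1 in WD, Pdk4 in CD and Ppargc1a in CD+7KC (in WD+7KC after rescaling, with the 2 libraries within counting error of each other on both scales).

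**Figure D1:**
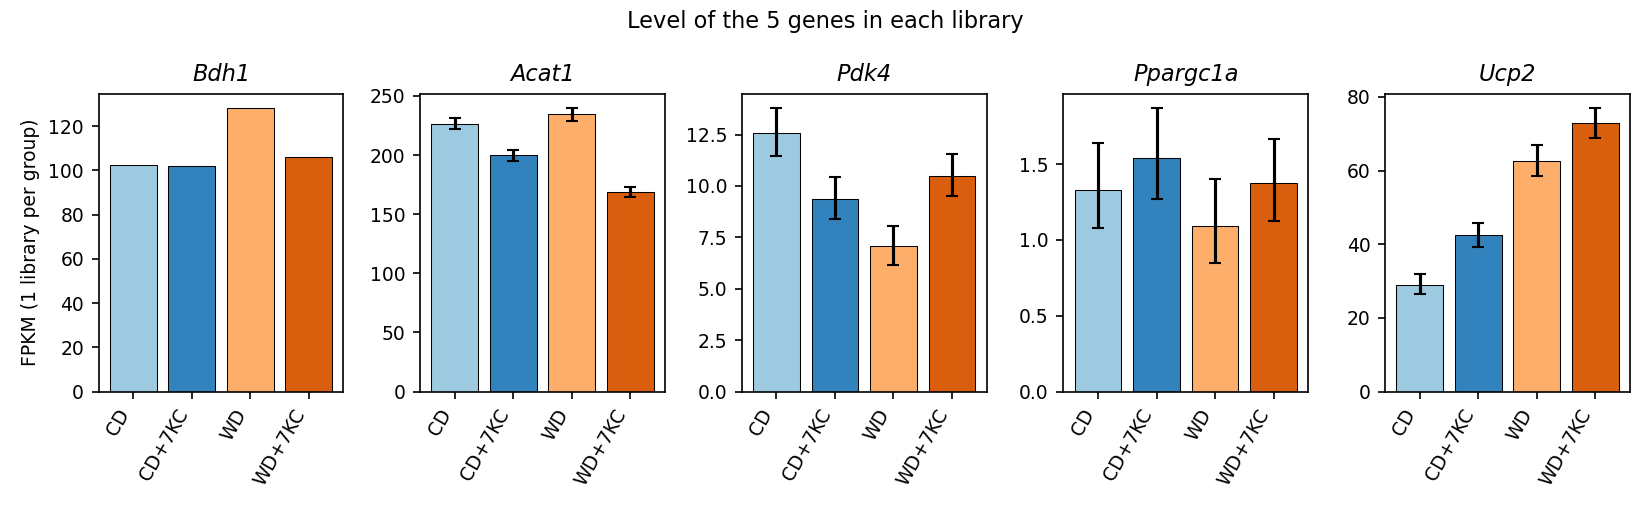
FPKM of each gene in each library (1 bar per library), on axes that start at 0 and differ between panels. Error bars are 95% Poisson intervals of the estimated reads and cover counting error only; Bdh1 has several mRNAs and is drawn without them. Ucp2 goes from 29.0 FPKM in CD to 72.9 FPKM in WD+7KC, while Pdk4 is highest in CD (12.6 FPKM) and lowest in WD (7.08 FPKM).

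The upstream sequences of Pdk4 and Ucp2, the genes that varied most, are shown to place them in the genome (RefSeq, GRCm38.p6, 5′ to 3′ on the strand of the gene, without bases inside the annotated gene). Capitals mark matches to the motifs searched.
Pdk4, chr6:5496310-5496528, minus strand: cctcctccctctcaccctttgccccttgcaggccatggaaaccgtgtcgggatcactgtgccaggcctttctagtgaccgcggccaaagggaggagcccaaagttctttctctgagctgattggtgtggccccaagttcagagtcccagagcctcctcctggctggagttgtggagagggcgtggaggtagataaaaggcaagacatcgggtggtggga
Ucp2, chr7:100493108-100493336, plus strand: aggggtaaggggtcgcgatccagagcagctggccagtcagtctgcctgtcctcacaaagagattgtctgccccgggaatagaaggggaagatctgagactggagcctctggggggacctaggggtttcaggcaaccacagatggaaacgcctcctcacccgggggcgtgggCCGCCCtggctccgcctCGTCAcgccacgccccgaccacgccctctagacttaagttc
The motifs were searched on both strands in the 250 bases before the RefSeq start: the core of the cAMP response element written as TGACG, the forkhead element written as TGTTTAC, the nuclear receptor element written as AGGTCA, its longer form for estrogen-related receptors written as AAGGTCA (which contains the shorter form), the GC box written as GGGCGG and the TATA box written as TATAAA. The Ucp2 window held GGGCGG on the opposite strand 79 to 74 bases before the start and TGACG on the opposite strand 62 to 58 bases before it. This start is that of the promoter entry, not the end of the printed sequence. For Ucp2, 21 bases inside the annotated gene lie between them and are not printed. Among 32851 mouse promoter windows of this length, 32.7% held GGGCGG and 17.8% held TGACG. The Pdk4 window held none of the 6 motifs, of which the forkhead element occurs in 3.17% of the windows, the nuclear receptor element in 14.0%, its longer form in 4.08% and the TATA box in 12.4%. Of the remaining genes, Ppargc1a had TGACG on the opposite strand 49 to 45 bases before the start listed in the table, and neither of the 2 windows of Bdh1 held a motif. The table has entries for 4 of the 5 genes and none for Acat1.

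The question for Acat1 and Bdh1 was whether the ketone body enzymes moved with diet or with 7KC. Acat1 (chromosome 9, 53580522 to 53610382, GRCm38, minus strand) was at 227 (CD), 200 (CD+7KC), 235 (WD) and 169 FPKM (WD+7KC). The 2 libraries with 7KC were the 2 lowest. In CD+7KC compared to CD the log2 fold change was -0.18 (95% counting interval -0.23 to -0.13), from an estimated 7062 and 7978 reads. Under WD it was -0.48 (-0.53 to -0.43), from 6571 and 7097 reads. After rescaling to equal sums these changes were -0.14 (-0.19 to -0.095) and -0.26 (-0.31 to -0.21), so that Acat1 was lower with 7KC under each diet on both scales. Relative to the median of all genes, Acat1 changed by -0.18 under CD and by -0.45 under WD. Diet alone made little difference, with a log2 fold change of 0.049 (0.0029 to 0.096) in WD compared to CD. With 7KC in both diets it was -0.25 (-0.29 to -0.20), which became -0.037 (-0.085 to 0.012) after rescaling.

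Bdh1 (chromosome 16, 31422280 to 31458901, plus strand) was highest in WD. It stood at 103 (CD), 102 (CD+7KC), 128 (WD) and 106 FPKM (WD+7KC). With these deposited values CD, CD+7KC and WD+7KC lay within 4 FPKM of each other, but after rescaling to equal sums both WD libraries lay above both CD libraries. RefSeq lists 2 mRNAs of different length, so the intervals for Bdh1 use the shorter mRNA, which gives fewer reads (1700 to 1948 per library) and wider intervals. In CD+7KC compared to CD the log2 fold change was -0.0074 (-0.11 to 0.090), so that no difference could be detected at this depth. In WD compared to CD it was 0.32 (0.23 to 0.42), or 0.35 after rescaling. For WD+7KC compared to WD it was -0.28 (-0.37 to -0.18), and -0.059 (-0.15 to 0.033) after rescaling, which includes 0. Relative to the median of all genes it was -0.25. For WD+7KC compared to CD+7KC it was 0.054 (-0.040 to 0.15), and 0.26 (0.17 to 0.36) after rescaling, so that the rescaled interval left out 0 and the deposited did not. The all-gene median of this comparison was itself 0.19 after rescaling, and relative to the median of all genes Bdh1 changed by 0.070. The antisense gene Gm15743 overlaps Bdh1, and whether the authors counted reads by strand is not given in the sources used here.

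Genes that use or carry ketone bodies moved in several directions. Oxct1, which encodes the enzyme that lets tissues other than hepatocytes burn ketone bodies, was at 1.05 (CD), 1.19 (CD+7KC), 1.58 (WD) and 3.28 FPKM (WD+7KC). Its estimated reads were 38, 43, 50 and 133, with WD+7KC the highest. In WD compared to CD its log2 fold change was 0.54 (-0.024 to 1.26), or 0.57 (0.0092 to 1.29) after rescaling. The log2 fold change in WD+7KC compared to WD was 1.01 (0.57 to 1.55), past 2-fold, and 1.22 after rescaling. In CD+7KC compared to CD it was 0.16 (-0.49 to 0.84), and no difference could be seen at this depth. Bdh2, which encodes a cytosolic dehydrogenase, was at 16.9 (CD), 20.2 (CD+7KC), 8.05 (WD) and 6.63 FPKM (WD+7KC), so that both WD libraries lay below both CD libraries. Slc16a6, a ketone body transporter of the liver, was at 1.83 (CD), 0.823 (CD+7KC), 1.54 (WD) and 1.55 FPKM (WD+7KC). Slc16a1, a monocarboxylate transporter, was at 18.6, 14.8, 19.4 and 19.1 FPKM in the same order. For both transporters CD+7KC was the lowest library. Of the 13 genes in this list, 12 reached 1 FPKM in a library compared and Hmgcll1 did not. Without Acat1 and Bdh1, 5 of 10 were higher and 5 lower in CD+7KC compared to CD (median log2 fold change -0.0083), and 2 were higher and 8 lower in WD+7KC compared to WD (median -0.22). After rescaling the second count was 5 higher and 5 lower with a median of -0.0042, against 0.19 for all genes. Acat2 and Acat3 are neighbouring genes of one family on chromosome 17, and reads may be split between them, so their values are uncertain.

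Pdk4 was the gene whose response to 7KC went in opposite directions under the 2 diets. Pdk4 (chromosome 6, 5483351 to 5496309, minus strand) was at 12.6 (CD), 9.38 (CD+7KC), 7.08 (WD) and 10.5 FPKM (WD+7KC), with about 454, 339, 219 and 419 reads behind them. CD was the highest library and WD the lowest, and the libraries with 7KC lay between them. In CD+7KC compared to CD the log2 fold change was -0.42 (-0.63 to -0.22). In WD+7KC compared to WD it was 0.56 (0.33 to 0.81). The change under WD exceeded that under CD by 0.98 on the log2 scale, or by 1.16 after rescaling. Among 10530 genes tested under both diets, the median size of this difference with the deposited values was 0.24, and it exceeded 1 for 4.30%, a size that Pdk4 did not reach on that scale. With 1 library per group, the difference itself could not be tested. Relative to the median of all genes, Pdk4 changed by -0.42 under CD and by 0.59 under WD. In WD compared to CD it was lower by a log2 fold change of -0.82 (-1.07 to -0.60). Between the libraries with 7KC, WD+7KC compared to CD+7KC, it was 0.16 (-0.046 to 0.37), or 0.37 (0.16 to 0.58) after rescaling. The neighbours CD+7KC and WD+7KC did not differ beyond counting error with the deposited values, and WD+7KC and CD did not after rescaling (-0.18 to 0.21). The difference between CD and WD was outside counting error on both scales.

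Within the family of pyruvate dehydrogenase kinases, Pdk4 was a minor part. Pdk2 was at 58.3 (CD), 66.2 (CD+7KC), 73.2 (WD) and 58.4 FPKM (WD+7KC). Pdk2 was highest in WD, where Pdk4 was lowest, and the ratio of Pdk2 to Pdk4 ranged from 4.63 in CD to 10.3 in WD. With 7KC, Pdk2 also changed in opposite directions, by 0.18 under CD and -0.33 under WD (0.22 and -0.11 after rescaling). Pdk1 was at 25.6 (CD), 25.1 (CD+7KC), 19.3 (WD) and 15.8 FPKM (WD+7KC). Pdk3 stayed between 0.152 and 0.777 FPKM, with 3 to 18 estimated reads. Pdk4 made up 13.02% (CD), 9.27% (CD+7KC), 7.08% (WD) and 12.3% (WD+7KC) of the summed FPKM of the 4 kinases. These shares do not depend on the scaling of the libraries. Of the other genes of pyruvate dehydrogenase and its control, 11 reached 1 FPKM. They gave 7 higher and 4 lower in CD+7KC compared to CD (median 0.020). In WD+7KC compared to WD they gave 1 higher and 10 lower (median -0.19). After rescaling this was 6 higher and 5 lower (median 0.021, against 0.19 for all genes). In WD+7KC compared to CD+7KC, 0 of these 11 genes were higher and 11 lower (median -0.38), or 3 and 8 after rescaling (median -0.17). The subunit genes Pdha1 (80.8 to 93.9 FPKM), Pdhb (112 to 152 FPKM) and Dlat (17.9 to 19.1 FPKM) gave the ranges shown over the 4 libraries. Mpc1, which encodes a subunit of the carrier that brings pyruvate into mitochondria, was at 451 (CD), 490 (CD+7KC), 578 (WD) and 369 FPKM (WD+7KC). With 7KC under WD its log2 fold change was -0.65, or -0.43 after rescaling, and that of its partner Mpc2 was -0.49, or -0.28 after rescaling. Pdpr, a regulator of the phosphatase that reactivates pyruvate dehydrogenase, was at 3.86 and 3.92 FPKM in CD and CD+7KC and at 1.95 and 2.28 FPKM in WD and WD+7KC.

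Ppargc1a (chromosome 5, 51454250 to 51567726, minus strand) was low in all libraries, with 1.33 (CD), 1.54 (CD+7KC), 1.09 (WD) and 1.37 FPKM (WD+7KC). These values rest on about 92, 107, 65 and 105 reads. Each library with 7KC was above its diet alone, but the intervals were wide. The log2 fold change was 0.20 in CD+7KC compared to CD (interval of the FPKM ratio -0.20 to 0.63) and 0.30 in WD+7KC compared to WD (-0.13 to 0.80). Neither difference was detectable at this depth with the deposited values, and after rescaling the interval under WD was 0.083 to 1.01. In WD compared to CD the log2 fold change was -0.26 (-0.76 to 0.19), and in WD+7KC compared to CD+7KC -0.16 (-0.57 to 0.23), which became 0.039 after rescaling. No neighbours in the deposited order WD, CD, WD+7KC and CD+7KC differed beyond counting error. The interval between the lowest and the highest library was 0.038 to 0.96. That pair was picked after the libraries were ordered by value, which the interval does not allow for. RefSeq lists 1 curated mRNA of Ppargc1a, and further models and 4 other genes overlap the locus, so the read numbers are approximate.

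The related coactivators were also low. Ppargc1b, which encodes PGC-1β, was at 0.893 (CD), 1.52 (CD+7KC), 0.733 (WD) and 0.641 FPKM (WD+7KC). Pprc1 was at 2.70, 2.13, 1.63 and 2.18 FPKM in the same order. Pprc1 was above Ppargc1a in every library. Ppargc1b was highest in CD+7KC and Pprc1 in CD. Among the 18 genes of the PGC-1 family and its partners, Sirt1, which encodes a deacetylase that acts on PGC-1α, had the largest change in WD compared to CD. It was at 3.06 (CD), 2.95 (CD+7KC), 1.40 (WD) and 2.28 FPKM (WD+7KC). Its lowest value was in WD, as for Pdk4 and Ppargc1a and for Pprc1, Nrf1 and Kat2a of this list. The log2 fold change of Sirt1 was -1.08 in WD compared to CD, where 272 of 10860 genes were more than 2-fold lower. In WD+7KC compared to WD it was 0.67 (0.88 after rescaling). No read number or counting interval is given for Sirt1. Sirt3, the gene of a mitochondrial deacetylase, was at 82.3, 78.4, 63.2 and 46.6 FPKM, the lowest in WD+7KC. Ppara, which encodes the fatty acid receptor that switches on ketogenesis, was at 59.0 (CD), 50.1 (CD+7KC), 52.3 (WD) and 42.3 FPKM (WD+7KC). Its change in WD+7KC compared to WD was -0.31, or -0.089 after rescaling. Without Ppargc1a, 5 of 16 genes of this list were higher and 11 lower in CD+7KC compared to CD (median -0.11). Under WD, 6 of 15 were higher and 9 lower (median -0.17). After rescaling this was 10 higher and 5 lower (median 0.042, against 0.19 for all genes). Perm1 did not reach 1 FPKM in any library.

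**Figure D2:**
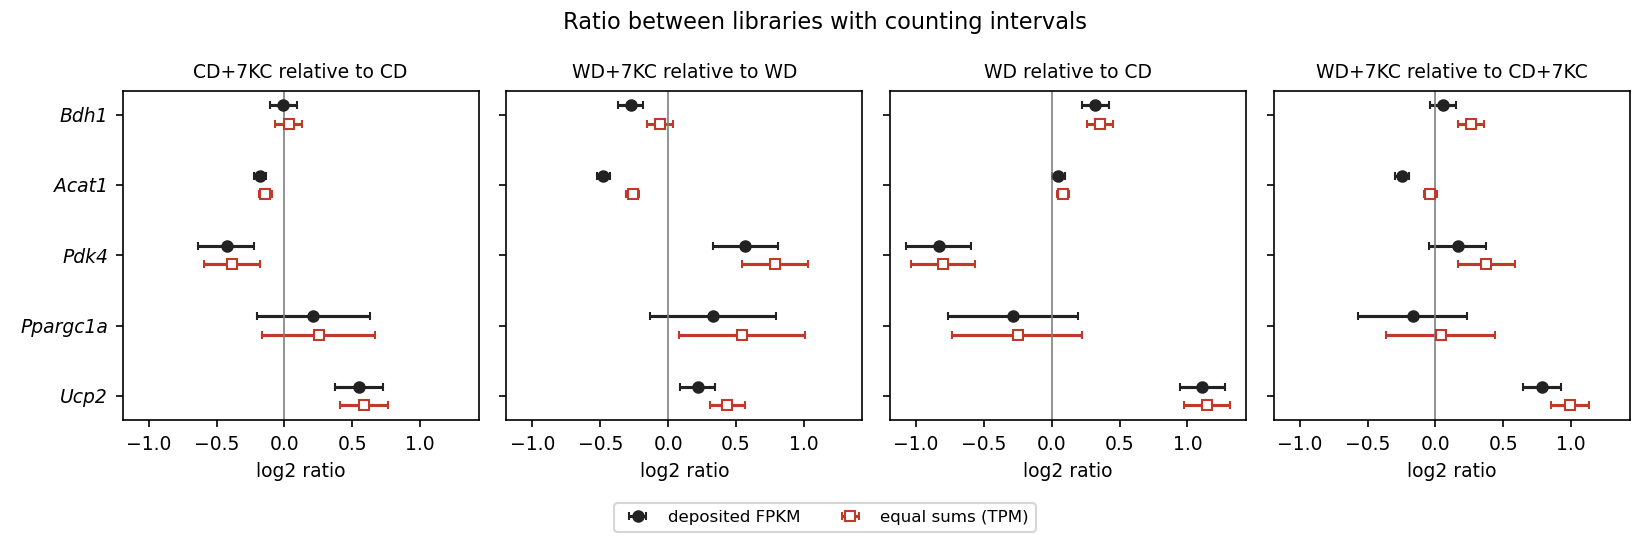
Log2 ratio of FPKM for each gene (rows) in 4 comparisons (panels), with filled circles for the deposited values and open squares after rescaling to equal sums. Bars are exact 95% intervals for counting error only, with the shorter mRNA used for Bdh1. Ucp2 lies to the right of 0 in all 4 panels on both scales, and Pdk4 lies to the left of 0 with 7KC under CD (-0.43) and to the right under WD (0.57).

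Ucp2 (chromosome 7, 100493337 to 100502020, plus strand) was higher with WD and with 7KC under each diet. It was at 29.0 (CD), 42.4 (CD+7KC), 62.6 (WD) and 72.9 FPKM (WD+7KC), with about 445, 652, 826 and 1238 reads behind them. Each step in this order was outside counting error. The log2 fold change was 0.55 (0.37 to 0.72) in CD+7KC compared to CD and 0.22 (0.090 to 0.35) in WD+7KC compared to WD. After rescaling to equal sums these were 0.59 (0.41 to 0.76) and 0.43 (0.31 to 0.56), and relative to the median of all genes 0.55 and 0.24. In WD compared to CD it was 1.11 (0.94 to 1.28), a ratio of 2.16. In WD+7KC compared to CD+7KC it was 0.78 (0.65 to 0.92), a ratio of 1.72, and 0.99 after rescaling. Read numbers of Ucp2 were based on the 1597 bases of exon inside the RefSeq gene, because the linked GENCODE transcript runs on to 100502020, where it overlaps Dnajb13 on the opposite strand. Dnajb13 was at 0.0966 to 0.526 FPKM. Of the other uncoupling proteins, Ucp1 was listed at 0 in CD and WD and at 0.126 and 0.0570 FPKM in CD+7KC and WD+7KC, and Ucp3 was at 0.0731 to 0.162 FPKM. At most 4 estimated reads stood behind any of these values, so that Ucp2 made up between 99.4% and 99.8% of the summed FPKM of the 3 genes.

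The summed markers of macrophages and Kupffer cells had the same order of libraries as Ucp2, while single markers differed. The sum of 18 such markers was 293 (CD), 430 (CD+7KC), 489 (WD) and 926 FPKM (WD+7KC), and all 18 were above 0 in every library. Of the markers that reached 1 FPKM, 14 of 15 were higher in CD+7KC compared to CD, where 48.2% of all genes tested were. In WD+7KC compared to WD it was 18 of 18 (46.4% of all genes), and in WD compared to CD 13 of 15 (49.3%). Cd14 was lower with 7KC under CD (log2 fold change -1.22), and Cd14 and Cd163 were lower in WD compared to CD. Adgre1, Clec4f, Vsig4, Timd4 and Cd163 were higher in CD+7KC than in WD, unlike Ucp2. Of the 18 markers, 9 had the same order of the 4 libraries as Ucp2 (CD, CD+7KC, WD, WD+7KC), against 8.05% of the 11342 genes that reached 1 FPKM in a library. As ratios to CD, the other libraries had 1.46, 2.16 and 2.51 for Ucp2 and 1.47, 1.67 and 3.16 for the marker sum (CD+7KC, WD, WD+7KC). The largest step of the marker sum was from WD to WD+7KC (a ratio of 1.89), while Ucp2 changed there by a ratio of 1.16. Oxct1 stood at 1.128, 1.4995 and 3.117 relative to CD, so that its largest step was that of the marker sum. The summed hepatocyte markers were at 0.837, 1.001 and 0.783 relative to CD. These ratios are for the deposited values, and the last is lowered by the smaller FPKM sum of WD+7KC (602059, against 715605 in CD). The median log2 fold change of the hepatocyte markers with 7KC was -0.19 under CD and -0.33 under WD. After rescaling it was -0.15 and -0.11, against 0.033 and 0.19 for all genes. Of these 10 markers, 0 were higher in CD+7KC than in CD, and 1 was higher in WD+7KC than in WD (4 after rescaling). In WD compared to CD, 3 were higher and 7 lower (4 and 6 after rescaling), although the sum was nearly the same. The 5 T cell markers summed to 0.873 to 1.74 FPKM. The part of these cells in the changes of Ucp2, Oxct1 and Acat1 was not tested, and in whole liver fewer cells of a type and less RNA per cell cannot be told apart.

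**Figure D3:**
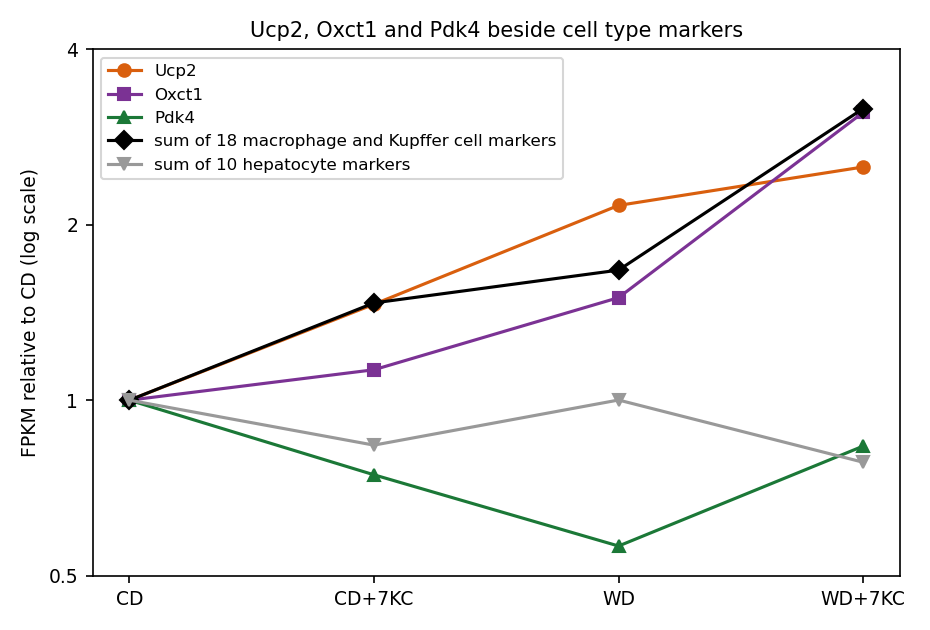
FPKM relative to the CD library on a log scale for Ucp2, Oxct1, Pdk4 and the summed markers of macrophages and Kupffer cells (18 genes) and of hepatocytes (10 genes), with 1 library per point and lines only to guide the eye. The macrophage sum and Oxct1 are highest in WD+7KC (3.16 and 3.12 times CD), Ucp2 has its largest values in WD and WD+7KC (2.16 and 2.51), and Pdk4 is below CD in the other 3 libraries. All values are as deposited, where the FPKM sum is lowest in WD+7KC (602059).

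Other carriers of the inner mitochondrial membrane gave no common direction with Ucp2. Of 7 carriers that reached 1 FPKM besides Ucp2, 3 were higher and 4 lower in CD+7KC compared to CD, 2 were higher and 5 lower in WD+7KC compared to WD (3 and 4 after rescaling), and 4 were higher and 3 lower in WD compared to CD (5 and 2 after rescaling). Slc25a4, an ADP/ATP carrier, was at 7.16 and 6.33 FPKM in CD and CD+7KC and at 12.6 and 13.4 FPKM in WD and WD+7KC, so that both WD libraries lay above both CD libraries, as for Ucp2. Slc25a30 was lowest in CD+7KC (6.99 FPKM, against 11.7 to 14.7 FPKM in the other libraries). Slc25a47, a carrier of liver mitochondria, was at 768, 674, 702 and 459 FPKM in the same order of libraries. Slc25a20, which carries acylcarnitines into mitochondria for oxidation, was at 98.5, 101, 126 and 100.3 FPKM, highest in WD as were Acat1 and Bdh1.

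**Figure D4:**
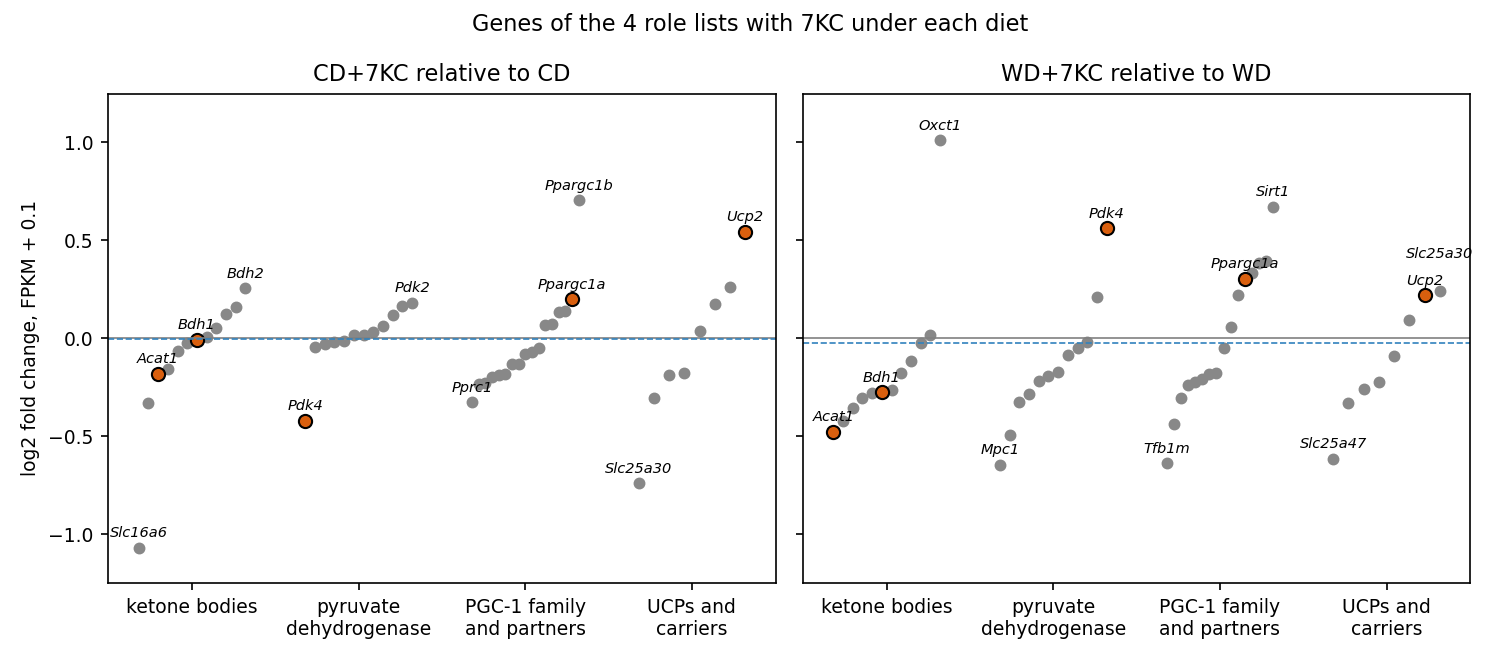
Log2 fold change on the scale of FPKM + 0.1 for each gene of the 4 role lists that reached 1 FPKM, in CD+7KC compared to CD (left) and WD+7KC compared to WD (right), with the 5 genes of this report in orange and others in grey. The dashed line is the median of all genes (-0.0048 left, -0.026 right). Pdk4 is the lowest gene of its list on the left (-0.42) and the highest on the right (0.56), and Acat1 is the lowest of the ketone list on the right (-0.48).

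The changes of the 5 genes are given beside the shares of all genes past the same cut-offs. For 5 genes and shares this small, finding none is near the share and says little about these genes. With 7KC under CD none of the 5 was past 2-fold, where 2.65% of 10813 genes were. None was past 1.5-fold, where 8.36% were, Ucp2 being just inside at a ratio of 1.46. With 7KC under WD none was past 2-fold (4.71% of 11059 genes) or past 1.5-fold (12.6%), Pdk4 being just inside at a ratio of 1.48. In WD compared to CD, Ucp2 was more than 2-fold higher, as were 3.04% of 10860 genes, and Pdk4 was more than 1.5-fold lower, as were 7.55%. Comparing WD+7KC to CD+7KC, none was past 2-fold (9.37% of 11137 genes), and Ucp2 was more than 1.5-fold higher, as were 13.5%. The median log2 fold change of the 5 was -0.0074 in CD+7KC compared to CD (2 higher, 3 lower), 0.22 in WD+7KC compared to WD (3 higher, 2 lower), 0.049 in WD compared to CD (3 higher, 2 lower) and 0.054 in WD+7KC compared to CD+7KC (3 higher, 2 lower). The median over all genes tested was -0.0048, -0.026, -0.0064 and -0.016. After rescaling to equal sums the log2 changes of Pdk4 in WD+7KC compared to WD (0.78) and of Ucp2 in CD+7KC compared to CD (0.59) passed 1.5-fold. The median over all genes tested was then 0.19 and 0.033 in these comparisons. The shares above are for the deposited values, and no share past 1.5-fold is given for the rescaled values.

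Genes of the fasted and of the fed state were examined beside Pdk4, because it is known to be switched on by fasting. Of 20 fasting-type genes, 11 were higher and 9 lower in CD+7KC compared to CD (median 0.0039). In WD+7KC compared to WD, 5 were higher and 15 lower (median -0.093). After rescaling this became 13 higher and 7 lower (median 0.12, against 0.19 for all genes). In WD compared to CD, 6 were higher and 14 lower (median -0.12, or 8 and 12 after rescaling). The lowest values were those of Igfbp1 with 7KC under CD (-1.13) and of G6pc with 7KC under WD (-1.10, or -0.88 and no longer past 2-fold after rescaling). Igfbp1 was at 90.9 (CD), 41.6 (CD+7KC), 46.7 (WD) and 47.6 FPKM (WD+7KC), and the glucose-6-phosphatase gene G6pc at 182, 183, 144 and 67.5 FPKM. Igfbp1 shared its highest library, CD, with Pdk4, and G6pc was lowest in WD+7KC, where Pdk4 was above WD. Fgf21, the gene of a fasting hormone, was at 9.68 and 10.02 FPKM in CD and CD+7KC and at 18.4 and 18.3 FPKM in WD and WD+7KC. Of 12 fed-type genes, 10 were higher and 2 lower in CD+7KC compared to CD (median 0.15). In WD+7KC compared to WD, 6 of 11 were higher (median 0.00058). After rescaling this became 9 of 11 (median 0.22, against 0.19 for all genes). In WD compared to CD, 8 of 11 were lower (median -0.50). Thrsp, a gene of lipid synthesis, had the lowest log2 fold change of this list in WD+7KC compared to CD+7KC (-2.01, or -1.80 after rescaling), and was at 928 (CD), 1323 (CD+7KC), 410 (WD) and 328 FPKM (WD+7KC). Of 17 clock genes, 15 reached 1 FPKM, and 7 were higher and 8 lower in CD+7KC compared to CD (median -0.018). In WD+7KC compared to WD, 4 were higher and 11 lower (median -0.20). After rescaling this became 10 and 5 (median 0.016, again below the 0.19 of all genes). Feeding state and hour at tissue collection are not given in the sources used here, and their part in the change of Pdk4 was not tested.

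Genes with the most similar pattern over the 4 libraries were named by the root mean square difference of centred log2(FPKM + 0.1) over genes whose mean was 5 FPKM or more. Pdk4 and Ucp2 had few close neighbours, with 9 and 8 of 6688 genes within 0.1. The nearest to Pdk4 were Trib1 (0.068), Crem (0.068) and Elf1 (0.075), and Trib1 was at 16.6 (CD), 14.0 (CD+7KC), 9.88 (WD) and 15.3 FPKM (WD+7KC). The nearest to Ucp2 were Them6 (0.051), Rcan2 (0.078) and Alpl (0.081), and Them6 was at 3.54, 5.01, 8.15 and 9.41 FPKM. The flatter genes had many: 857 genes lay within 0.1 of Bdh1 (nearest Rpl19, Asb8 and Mrps33), 386 within 0.1 of Acat1 (nearest Rsl1d1, Rnf34 and Fam210b) and 157 of 6689 within 0.1 of Ppargc1a (nearest Josd2, Als2cl and Zfp106). With 4 libraries these are descriptions of shape only.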

How the data were processed

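RNA sequencing of liver gave 1 library for each of CD, CD+7KC, WD and WD+7KC. According to the study's methods and the submitters' processing notes, stranded mRNA libraries were read as 75-base single ends and mapped to mm10 with TopHat2 2.0.13, Bowtie2 2.2.3 and SAMtools 0.1.19. The authors computed FPKM with Cufflinks 2.2.1 and deposited 1 FPKM value per gene symbol. The gene annotation, the Cufflinks options and the number of mice per library are not given in the sources used here.

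From these values, fold changes were computed on the scale of log2(FPKM + 0.1), which understates changes of low genes. Genes below 1 FPKM in both libraries compared were left out. Genes past 2-fold or 1.5-fold were counted. With 1 library per group there was no test. The estimate of depth used low values of 7154 genes that have 1 RefSeq mRNA and whose ends match GENCODE vM21 within 100 bases, with 200 bases subtracted from the length. Of the low values, 83.1% to 85.4% came within 0.1 of a whole read. Intervals compare estimated reads and apply to the FPKM ratio without the added 0.1. They cover counting error only. The length used for Ucp2 and the intervals for Bdh1 were chosen after seeing the data. The code was tested on simulated data.

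Genes named are the 5 genes, those of the 4 role lists that bear on them, the genes of the state lists with large changes and the 3 nearest in pattern. The 5 genes and all lists were chosen with earlier results of these data known. Alternatives were a pseudocount of 1 or 0.01, a filter above 0 FPKM, rescaling to equal sums (TPM), median-ratio scaling and rescaling without the 20 highest genes. Python 3.11.15, numpy 2.4.6, pandas 2.3.3, scipy 1.17.1 and matplotlib 3.10.9 were used. The qRT-PCR, histology and serum measurements were not analysed here, and some genes of the lists are counted but not reported here by name.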

Additional observations from a re-analysis of the deposited data

Results flagged for a closer look

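Pdk4 was flagged because its change with 7KC had opposite directions under the 2 diets. The log2 fold change was -0.42 in CD+7KC compared to CD and 0.56 in WD+7KC compared to WD. Both counting intervals left out 0, and the directions held after rescaling to equal sums (-0.38 and 0.78). Slc25a5, an abundant ADP/ATP carrier gene of the inner mitochondrial membrane, also had opposite directions, with 0.18 (counting interval 0.12 to 0.23) in CD+7KC compared to CD and -0.22 (-0.27 to -0.17) in WD+7KC compared to WD. After rescaling to equal sums the second value was -0.0051, so that the opposite direction of Slc25a5 rests on the deposited scale. Other listed genes, without counting intervals here, also had opposite directions on both scales. Among them were Slc25a30 (-0.74 under CD and 0.24 under WD), Pprc1 (-0.33 and 0.40) and Pdk2 (0.18 and -0.33). With 1 library per group, none of these differences between the diets was tested.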

How the results depend on the processing

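With 1 library per group, no setting measures the variation between mice, and no replicate could be left out. No paired analysis was possible because each group had 1 library. Over the 5 genes in 4 comparisons, 88 of 100 values under an alternative moved by less than their counting interval allows, 12 moved by more, and no value whose interval left out 0 changed its sign. The 12 belong to Bdh1, Acat1 and Ucp2 in the comparisons with WD+7KC, after rescaling to equal sums or without the 20 highest genes. The median of the 5 genes in WD+7KC compared to WD was 0.22 and became 0.43 with equal sums and 0.39 without the 20 highest genes, and in WD+7KC compared to CD+7KC it was 0.054 and became 0.26 and 0.25. Median-ratio scaling moved none of these. The number of genes past 2-fold was 287 in CD+7KC compared to CD, 521 in WD+7KC compared to WD, 602 in WD compared to CD and 1043 in WD+7KC compared to CD+7KC. With a pseudocount of 1 it was 113, 189, 287 and 541, and with all genes above 0 FPKM 1059, 1418, 1511 and 2007. In WD+7KC compared to WD, 414 genes were higher and 107 lower, against 647 and 67 with equal sums and 601 and 69 without the 20 highest genes. In WD+7KC compared to CD+7KC, 692 were higher and 351 lower, against 989 and 242, and 966 and 250. Low read numbers limit Ppargc1a, Oxct1 and Pdk3.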
